A study of Mus musculus with 12 samples.

Results

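The TRIM genes encode the tripartite motif family. They were taken as the rows of the deposited count table whose symbol is Trim, a number and at most 1 lower-case letter, with at least 10 counts in 3 or more of the 12 libraries. The table of 40847 genes holds 68 such symbols, and 47 of them met the threshold, all of which entered the test. The threshold used the counts of these libraries, so that a gene with few reads could pass through the condition in which it is high. It was met by 14902 genes of the table in all.

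The cells were FLAMs, mouse fetal liver alveolar-like macrophages, kept in medium with GM-CSF (30 ng/ml), a growth factor. They are a culture model of the macrophages of the lung air sacs and are not lung cells. All 4 groups had GM-CSF. The untreated group received nothing more, the TGFβ group was grown with recombinant human TGFβ1 at 20 ng/ml, the Pam3 group received the TLR2 ligand Pam3CSK4 at 25 ng/ml for 18 h, and the Pam3+TGFβ group received both. Each group has 3 libraries. Mouse strain, age and the number of animals are not given in the labels, which also do not say whether replicates came from separate cultures, so the p-values measure the spread between these libraries only. By the series title, the study asks how TGFβ alters what TLR2 activation does to type I interferon in such cells.

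Most TRIM proteins carry a RING domain, which makes them E3 ubiquitin ligases, followed by B-box zinc fingers, a coiled coil and a C-terminal domain that binds the target. Many of them are known as interferon-stimulated genes or act on innate sensing: they tag RNA sensors and their adaptors with ubiquitin, bind viral capsids or antibody-coated pathogens, or restrain NF-κB. Others serve as chromatin cofactors, some with SMAD proteins, which carry the TGFβ signal into the nucleus, or act on microtubules, membranes and muscle.

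The libraries held 34036650 to 44374115 counts, and 14749 genes were tested. The 6 macrophage and 7 alveolar macrophage markers were all detected. TGFβ moved several of them: Siglecf, a surface lectin of alveolar macrophages, averaged 32.1 CPM (counts scaled to a common library total) without treatment and 300.4 with TGFβ, Itgam (CD11b) 1088 and 38.8, and Fabp4 31.1 and 0.132. On the alveolar macrophage list, Marco (2147 and 123) and Itgax (335 and 168) were lower with TGFβ, like Fabp4. Pparg (117 and 225), Car4 (448 and 774) and Chil3 (2954 and 5038) were higher, like Siglecf. Of 4 markers each for other cells, the summed lymphocyte markers stayed at or under 0.288 CPM in every library, with Cd3e and Ncr1 among those without a count, the summed erythroid markers at or under 0.257, and the summed fibroblast markers between 0.407 and 1.28. The mast cell markers, of which Mcpt4 and Tpsb2 had no count, summed to 0.263 to 1.11 CPM untreated, 0 to 0.0741 with TGFβ, 0.265 to 0.667 with Pam3 and 0 to 0.203 with Pam3+TGFβ. Of the hepatocyte markers, Ttr had no count and the sum, nearly all of it the fetal liver gene Afp, was 5.80 to 5.87 CPM untreated, 5.83 to 6.25 with TGFβ, 6.40 to 7.70 with Pam3 and 8.41 to 10.1 with Pam3+TGFβ, the group in which most interferon-linked TRIM genes were highest. Of the neutrophil markers, Mpo had no count and 1, S100a8, met the count threshold; their sum was 12.6 to 15.4 CPM untreated, 2.49 to 3.58 with TGFβ, 15.4 to 15.5 with Pam3 and 3.64 to 4.42 with Pam3+TGFβ. What part these shifts have in the TRIM values was not tested. In bulk RNA, fewer cells with a transcript and less of it per cell cannot be told apart.

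Per kilobase of merged exon, so that genes can be set side by side, Trim29 was the TRIM gene with the highest level over the 12 libraries (60.9 CPM per kb). Trim25 (41.1), Trim28 (39.3), Trim30a (20.0) and Trim30d (18.9) followed. Trim29 has no RING domain and is known for restraining innate signalling in alveolar macrophages, Trim25 helps to activate the RNA sensor RIG-I, and Trim28 is the corepressor of KRAB zinc-finger proteins. Trim29, Trim25 and Trim28 were above the other TRIM genes on this scale in untreated cells too, while Trim30a and Trim30d reached their place through the Pam3 and Pam3+TGFβ libraries. At the bottom, Trim66, Trim72, Trim30b and Trim2 averaged 0.0496, 0.0477, 0.0446 and 0.0196 CPM per kb.

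**Figure D1:**
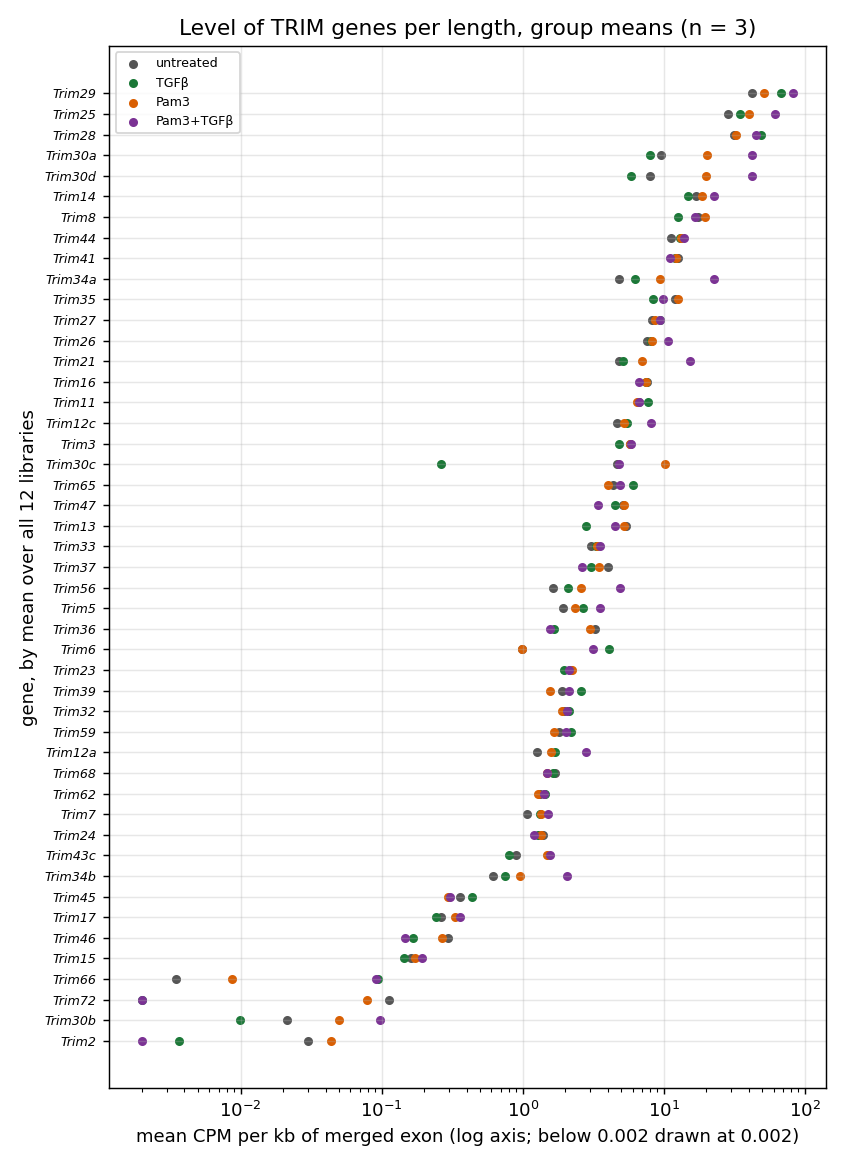
Mean level of the 47 TRIM genes in CPM per kilobase of merged exon (log axis; points, group means of 3 libraries; values under 0.002 are drawn at 0.002), ordered by the mean over all 12 libraries. Trim29, Trim25 and Trim28 stand at the top, and Trim30a, Trim30d, Trim34a and Trim30c show wide gaps between the groups.

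Close to the threshold, just inside it, Trim72 had at least 10 counts in 4 libraries (0 to 17 counts), Trim30b in 7 (0 to 31) and Trim15 in 9 (4 to 32). Just outside, Trim42 reached 10 counts in 2 libraries (0 to 15), and Trim9 and Trim69 in 1 library each (0 to 17 and 0 to 18). Of the remaining TRIM symbols, 8 had no count in any library, and Trim31 and Trim38 were listed with 0 to 4 counts. Trim2, Trim15, Trim30b, Trim66 and Trim72 had fewer than 10 counts in at least 1 library, and the other 42 had 10 or more in each.

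The genes are spread over 13 chromosomes, and 16 of the 47 lie on chromosome 7. Of these, 10 form a cluster of 289.1 kb at chr7:103868000-104157107 of GRCm39, in the order Trim6, Trim34a, Trim5, Trim12a, Trim34b, Trim12c, Trim30b, Trim30c, Trim30a and Trim30d. In the GENCODE annotation all 10 are protein-coding genes. They are mouse relatives of the antiviral genes TRIM5, TRIM6 and TRIM34. Several are close copies. Of the 100-base stretches in their transcripts, 25.0% of Trim34b and 18.4% of Trim34a occur in the transcripts of the other. In Trim12c 12.8%, in Trim5 11.1%, in Trim30d 4.40%, in Trim12a 3.29% and in Trim30a 1.78% occur in another TRIM gene, and none in Trim30b or Trim30c. How reads that fit several places were counted is not given in the sources used here, and so the split between Trim34a and Trim34b, between Trim12a, Trim12c and Trim5, and between Trim30a and Trim30d is uncertain. Exons of genes on the other strand overlap Trim14 over 1356 bases (Nans), Trim30b over 1138 and Trim34a over 609, and reads from the 2 strands may not have been told apart.

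Promoter windows of 300 bases (250 before to 50 after the RefSeq start, GRCm38.p6) were matched by symbol for 35 of the 47 genes and placed on GRCm39 by their exact sequence. They were searched for the core of the interferon-stimulated response element (ISRE), GAAANNGAAA, or TTTCNNTTTC on the other strand. The element is known from the promoters of interferon-stimulated genes. It was present in 9 of the 35, namely Trim12a, Trim12c, Trim2, Trim21, Trim26, Trim30a, Trim30d, Trim34a and Trim5, and in 3.99% of the 27025 genes with a window. The sequences below show the match in 7 genes on chromosome 7 and the matching place in Trim30c, whose expression differs from that of its neighbours. They run 5′ to 3′ on the strand of the gene; capitals mark the core, with the overlapping matches of Trim21 joined, and in Trim30c the bases in the same place.
Trim30a (chr7:104114417-104114446, minus strand): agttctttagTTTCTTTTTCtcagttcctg
Trim30d (chr7:104157078-104157107, minus strand): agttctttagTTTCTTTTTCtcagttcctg
Trim30c (chr7:104050103-104050132, minus strand): agttctgtggTTCCTTTTTCtcagttccac
Trim34a (chr7:103893664-103893693, plus strand): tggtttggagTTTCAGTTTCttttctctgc
Trim21 (chr7:102214654-102214683, minus strand): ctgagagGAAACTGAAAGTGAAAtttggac
Trim12a (chr7:103964673-103964702, minus strand): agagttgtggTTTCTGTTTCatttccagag
Trim12c (chr7:104002566-104002595, minus strand): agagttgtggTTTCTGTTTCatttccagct
Trim5 (2 places in GRCm39, minus strand): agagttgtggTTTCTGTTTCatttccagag

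The 30 bases of Trim30a and Trim30d were identical, with the core starting at -36 and -41 from the RefSeq start. Those of Trim30c differed from Trim30a at 5 positions, counted from 1 at the 5′ end with the base of Trim30a first: T7G, A9G, T13C, T29A and G30C. Of these, T13C falls inside the capitals, and the capitals of Trim30c begin at -137 from its RefSeq start. Trim12a and Trim5 had the same 30 bases. These matches are descriptions of letters, not of bound sites. The palindrome TTCNNNGAA, known as the GAS element, was found in 4 of the 35 genes (Trim15, Trim30c, Trim45 and Trim46) and in 9.55% of all genes with a window. The SMAD palindrome GTCTAGAC was found in 0 of the 35 and in 0.248% of all genes.

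The 5 comparisons were made with the quasi-likelihood test of edgeR, fitted to all 14749 genes and all 12 libraries. A gene was called where its Benjamini-Hochberg adjusted p over all tested genes was under 0.05. Adjusted p-values below come from this test, except those given for an alternative (a library left out, a block, or another scaling, filter or method). Those come from the fit of that alternative. Fold changes are on the log2 scale with their standard error (SE), and levels are CPM as mean ± SD of 3 libraries. "Rose" and "fell" refer to called genes.

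Pam3 without TGFβ raised 14 of the 47 TRIM genes and lowered 1, Trim37. Trim39 was just outside the threshold (log2 -0.29, adjusted p 0.051). It was called under RLE and upper-quartile scaling, DESeq2 and limma, among other alternatives. Over the 14749 tested genes, the share called higher was 9.62% and the share called lower 8.66%. When TGFβ was in the medium, Pam3 raised 20 TRIM genes and lowered 8, against 20.4% of all genes called higher and 18.1% lower. The 2 responses share no library. In both, 13 genes rose, which is 13 of 14 and 13 of 20, and Trim37 fell in both. Over all tested genes, 7.95% rose and 6.15% fell in both, against 27.7% and 2.13% of the TRIM genes. The median log2 fold change of the TRIM genes was 0.084 without TGFβ and 0.11 with it, against 0.00037 and -0.019 over all tested genes. Over the 42 genes that reached 10 counts in all libraries, 14 were called higher and 1 lower without TGFβ, and 19 higher and 8 lower with it.

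Subtracting the Pam3 response without TGFβ from that with it gives the interaction, which tests the difference directly. It was higher in 13 TRIM genes and lower in 1, Trim47, against 10.3% and 5.67% of all tested genes. Of the 13, 11 belong to a list of 15 TRIM genes with known interferon links (Trim5, Trim6, Trim12a, Trim12c, Trim14, Trim21, Trim25, Trim26, Trim30a to Trim30d, Trim34a, Trim34b and Trim56), and the remaining ones are Trim13 and Trim8. On that list, 10 genes rose with Pam3 alone, and 14 were called higher and 1 lower with Pam3 in the presence of TGFβ. The 14 include Trim30b, which met the count threshold mainly through libraries with Pam3 and is given as a description. The median interaction of the list was 0.56, against 0.0045 over all tested genes. Of the 32 TRIM genes outside it, 4 (12.5%) rose and 1 fell without TGFβ, and 6 (18.8%) rose and 7 (21.9%) fell with it, against 9.62% and 8.66% of all tested genes without TGFβ and 20.4% and 18.1% with it. The shares with TGFβ were near those of all genes. Their interaction was called for 2 higher and 1 lower. Trim3 (log2 0.30, adjusted p 0.0566) and Trim28 (log2 -0.18, adjusted p 0.0689) lay just outside the threshold, and were called under DESeq2 and some other alternatives. Trim6 and Trim34b, on the list, were called only in some fits with 1 library left out. Of the 11 genes with a higher interaction and a promoter window, 7 held the ISRE core, as did 2 of the other 24. It was present in 3.99% of all genes with a window. The 7 include the close copies Trim30a and Trim30d, and Trim12a and Trim12c, and are not independent. A link between the core and the interaction was not tested. Over the 42 genes that no library had under 10 counts, the interaction was likewise higher in 13 and lower in 1.

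**Figure D2:**
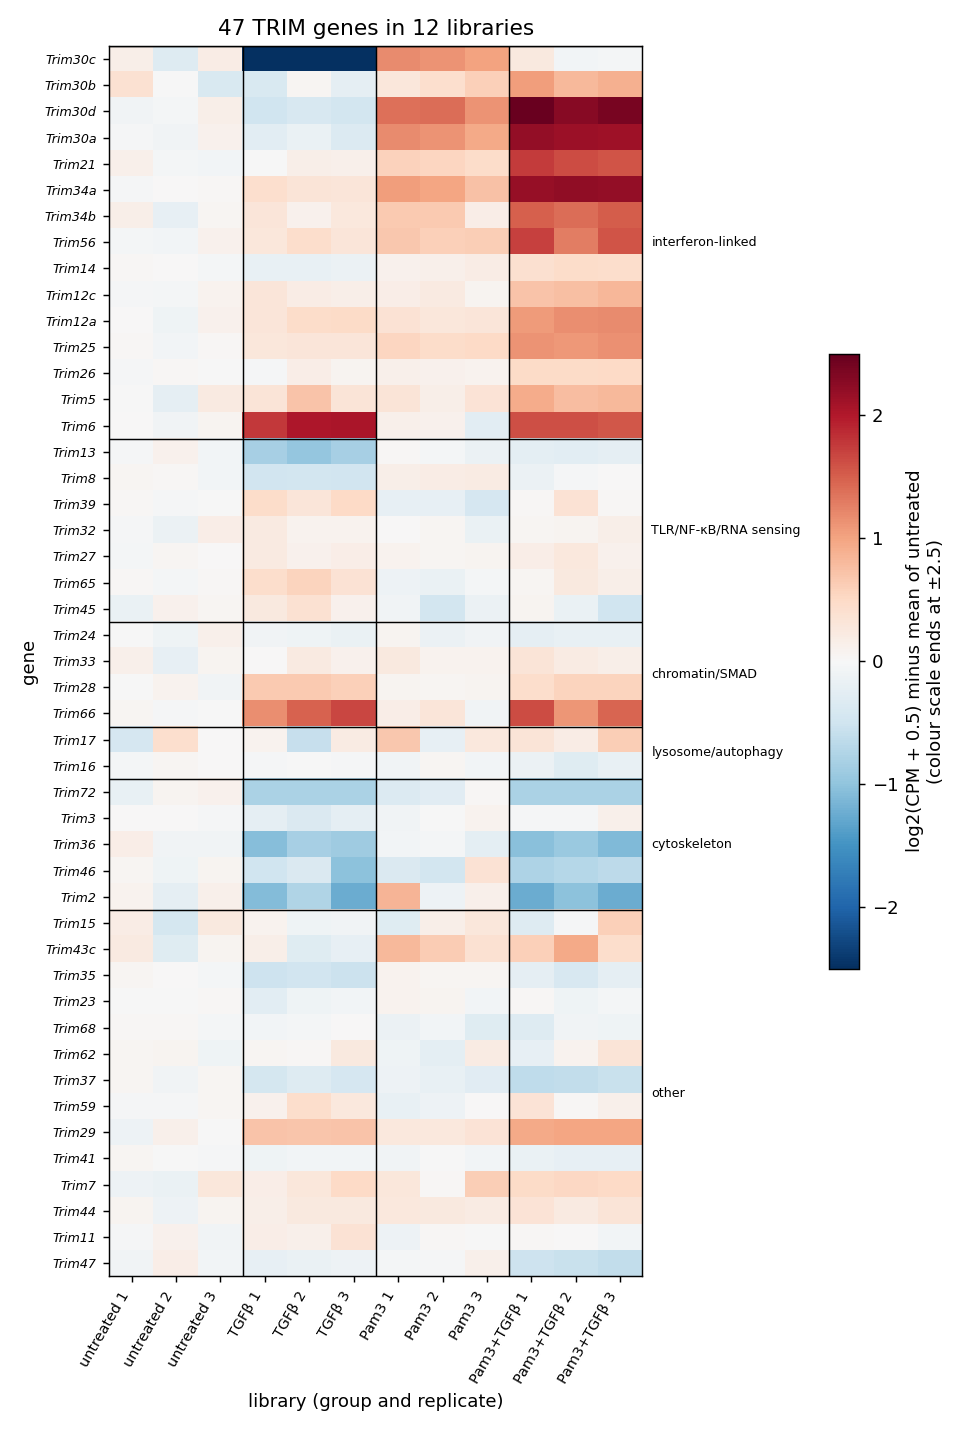
Level of the 47 TRIM genes in each of the 12 libraries, as log2(CPM + 0.5) minus the mean of the untreated libraries; rows are genes grouped by known role, columns are libraries, and the colour scale ends at 2.5 on either side. The interferon-linked block is red in the Pam3+TGFβ libraries except Trim30c, whose TGFβ libraries are dark blue, and Trim6 is red in both groups with TGFβ.

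**Figure D3:**
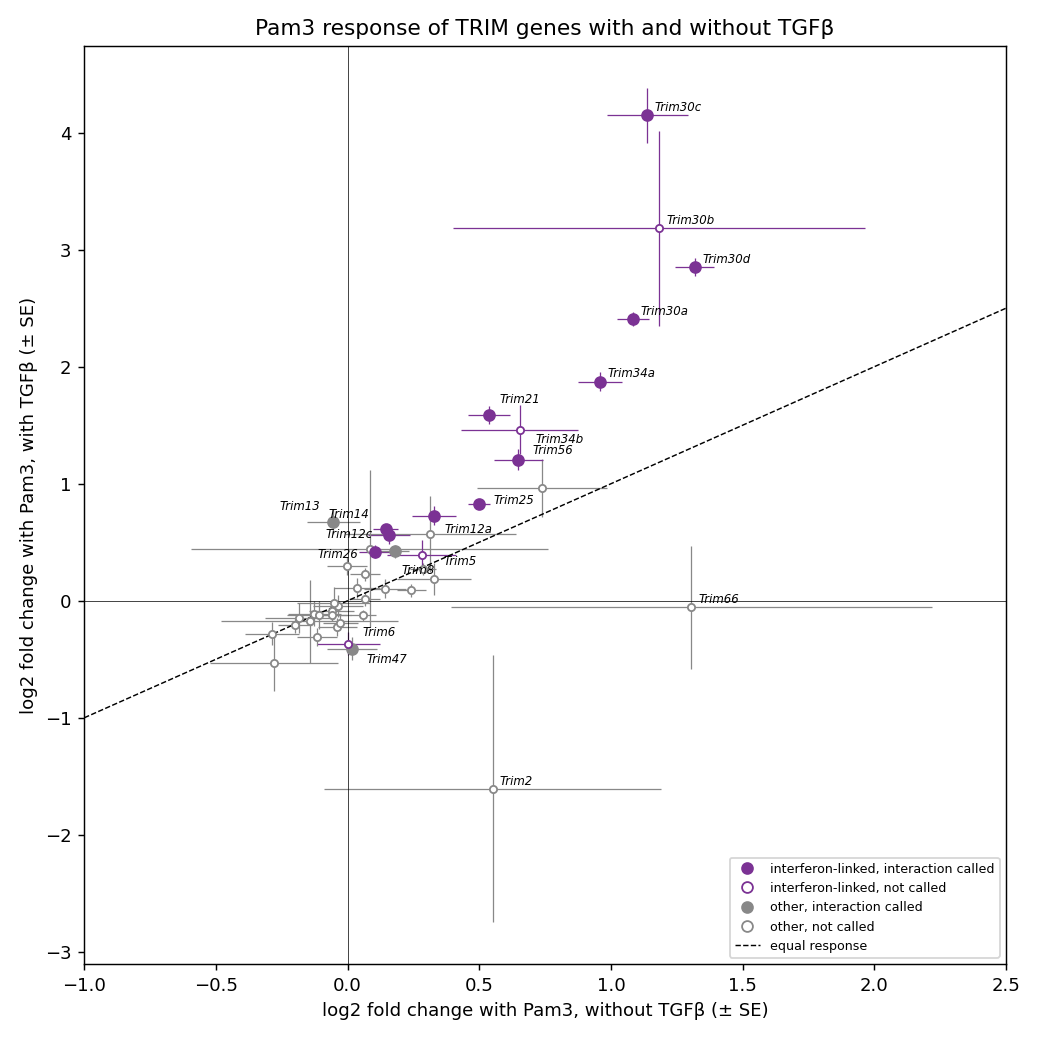
Pam3 response with TGFβ (vertical axis) against the response without it (horizontal axis), both as log2 fold change ± SE, for 46 TRIM genes; filled points have a called interaction, purple points are interferon-linked, and the dashed line marks equal responses. Trim30c, Trim30d, Trim30a, Trim34a and Trim21 stand furthest above the line among the called genes; Trim72, with no count in the groups with TGFβ, is not drawn.

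The Trim30 genes had the largest responses. Trim30a is known to restrain NF-κB downstream of Toll-like receptors by acting on the adaptors TAB2 and TAB3. Its levels were 91.5, 87.6 and 100.1 CPM in the untreated libraries, 77.2, 83.2 and 73.6 with TGFβ, 211, 202 and 179 with Pam3 and 427, 408 and 406 with both. No 2 of the 4 groups overlapped, with Pam3+TGFβ highest and TGFβ lowest. Pam3 raised Trim30a 2.12-fold without TGFβ (log2 1.08, SE 0.06, adjusted p 6.38e-12) and 5.31-fold with it (log2 2.41, SE 0.062, adjusted p 6.13e-19). The interaction was 1.32 (SE 0.084, adjusted p 6.07e-11).

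Trim30d, its neighbour in the cluster, had the same order of groups. It measured 28.6, 29.4 and 33.5 CPM untreated, 21.5, 23.1 and 22 with TGFβ, 80.1, 80.9 and 67.1 with Pam3 and 170.2, 150.3 and 159 with Pam3+TGFβ, again without overlap between any groups. The Pam3 response was 1.32 without TGFβ and 2.85 with it, and the interaction was 1.53 (SE 0.10, adjusted p 6.07e-11). TGFβ alone lowered Trim30a (log2 -0.26) and Trim30d (log2 -0.46), whereas in the presence of Pam3 both were higher with TGFβ, by 1.07 and 1.07. Trim14 was the other TRIM gene that fell with TGFβ without Pam3 and rose with it, by 0.29.

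Trim30c went another way. Its levels were 8.81, 6.21 and 9.10 CPM untreated, 0.360, 0.741 and 0.262 with TGFβ, 18.5, 17.9 and 16.4 with Pam3 and 9.54, 7.5 and 7.68 with Pam3+TGFβ. The TGFβ libraries were far below all others, the Pam3 libraries were the highest, and the untreated and Pam3+TGFβ libraries overlapped. TGFβ lowered it 17.3-fold without Pam3 (log2 -4.11, SE 0.24, adjusted p 2.93e-12) and 2.14-fold with Pam3 (log2 -1.10, SE 0.15, adjusted p 3.87e-06). Pam3 raised it 2.20-fold without TGFβ and 17.7-fold with it, so that it had the highest interaction of the TRIM genes, 3.01 (SE 0.30, adjusted p 1.45e-07), while its level with both agents stayed under that with Pam3 alone. Over the alternatives the interaction ran from 2.71 without TGFβ replicate 3 to 3.56 without TGFβ replicate 2.

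Trim30b was near the count threshold, at 0.342, 0.144 and 0 CPM untreated, 0, 0.173 and 0.0524 with TGFβ, 0.286, 0.372 and 0.477 with Pam3 and 0.844, 0.643 and 0.70 with Pam3+TGFβ. The Pam3+TGFβ libraries were above the rest. It met that threshold mainly through libraries with Pam3, and its fitted response to Pam3 with TGFβ of 3.18, given as a description, ran from 2.63 without TGFβ replicate 1 to 4.59 without TGFβ replicate 2. Neither its response without TGFβ nor its interaction was called.

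**Figure D4:**
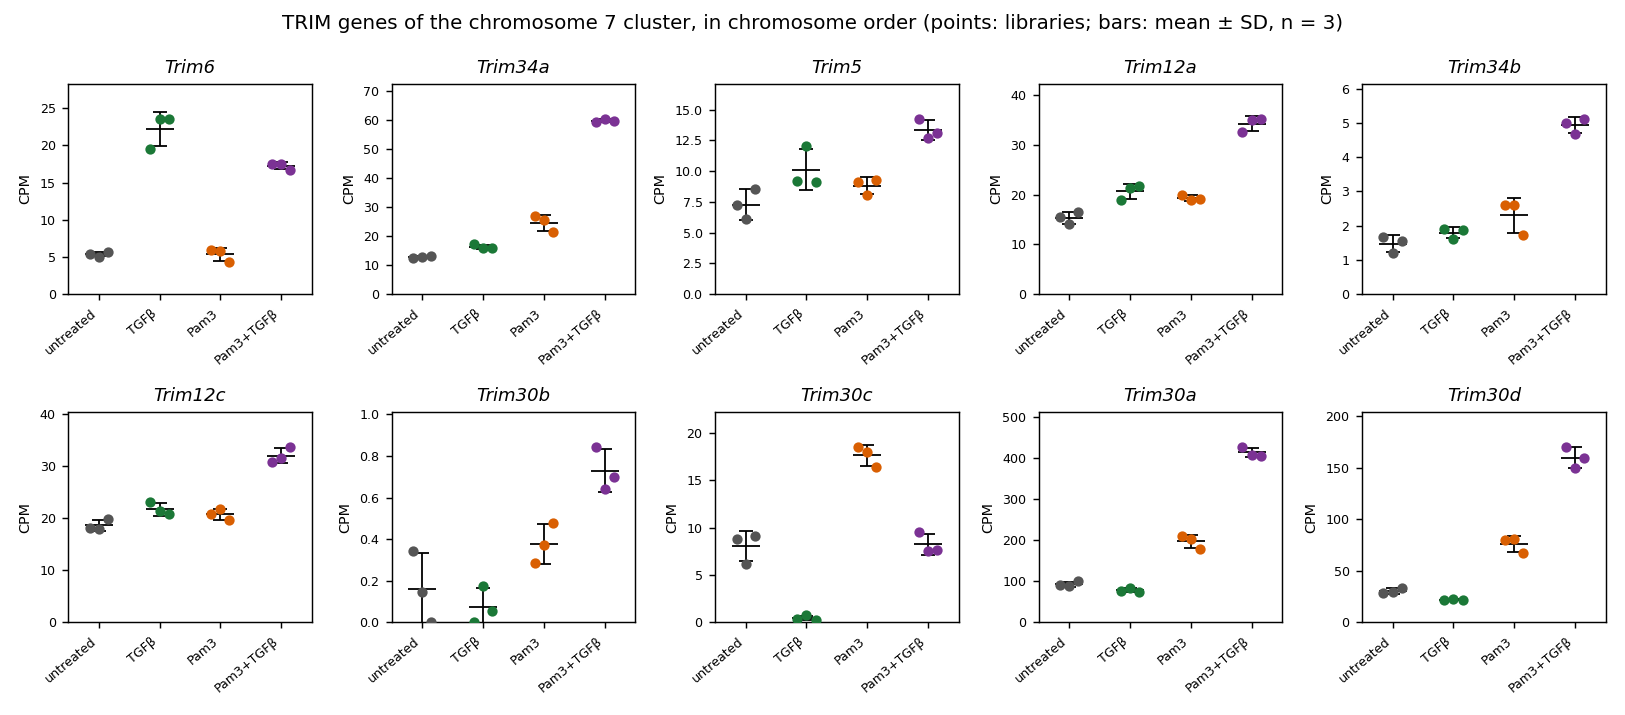
CPM of the 10 TRIM genes of the chromosome 7 cluster in each library, in chromosome order (points, libraries; bars, mean ± SD of 3 libraries; each vertical axis starts at 0). Pam3+TGFβ is the highest group in 8 of the 10, the exceptions being Trim6, highest with TGFβ, and Trim30c, highest with Pam3.

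Over the 10 genes of the cluster, 6 rose with Pam3 alone and 9 rose and 1 fell with Pam3 in the presence of TGFβ, with median log2 fold changes of 0.81 and 1.67. Of all tested genes, 9.62% rose without TGFβ and 20.4% with it. Trim30b, which met the count threshold mainly through libraries with Pam3, is among the 9. More widely, of the 27 TRIM genes whose proteins end in a PRY-SPRY domain, the part that binds the target, 9 (33.3%) rose without TGFβ, where 9.62% of all tested genes did, and 14 (51.9%) rose and 5 (18.5%) fell with it, against 20.4% and 18.1%. The share that fell was near that of all genes, and the 14 that rose include Trim30b. Trim34a, a relative of the primate restriction factor TRIM34, gave 12.4, 12.8 and 13.0 CPM untreated, 17.2, 16 and 15.9 with TGFβ, 26.8, 25.6 and 21.5 with Pam3 and 59.3, 60.5 and 59.8 with Pam3+TGFβ. The groups did not overlap. Pam3 raised it 1.94-fold without and 3.66-fold with TGFβ, and the interaction was 0.91 (SE 0.11, adjusted p 1.23e-06). Its near copy Trim34b averaged 1.48 ± 0.247 CPM untreated and 4.94 ± 0.228 with Pam3+TGFβ, and rose with Pam3 in the presence of TGFβ by 1.46 (SE 0.21, adjusted p 3.12e-06). The rise of Trim34b with Pam3 alone (log2 0.65, adjusted p 0.0404) lost its call in 9 of 20 alternatives, with adjusted p from 0.0542 to 0.162, among them those without untreated replicate 2 (0.152), untreated replicate 3 (0.056), Pam3 replicate 1 (0.162), Pam3 replicate 2 (0.16) or any 1 of the Pam3+TGFβ replicates.

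Trim5, Trim12a and Trim12c, mouse relatives of the retroviral restriction factor TRIM5, moved less. Trim12a measured 15.5, 14.1 and 16.6 CPM untreated, 19.0, 21.4 and 21.7 with TGFβ, 19.9, 18.9 and 19.2 with Pam3 and 32.6, 35.0 and 35.3 with both, and Trim12c averaged 18.7, 21.8, 20.8 and 32.1. Each rose with Pam3 in the presence of TGFβ, Trim12a by 0.73, Trim12c by 0.56 and Trim5 by 0.39, and each rose with TGFβ in both contrasts. The interaction was 0.40 for Trim12a (adjusted p 0.0175) and 0.40 for Trim12c (adjusted p 0.0123), and was not called for Trim5 (0.11, adjusted p 0.756). Trim12a lost this call without TGFβ replicate 1 (adjusted p 0.0906), Pam3+TGFβ replicate 2 (0.0513) or Pam3+TGFβ replicate 3 (0.0626), and Trim12c without TGFβ replicate 3 (0.0571) or Pam3+TGFβ replicate 3 (0.057). The TGFβ effect on Trim12c without Pam3 (log2 0.22, adjusted p 0.0231) was lost without untreated replicate 2 (0.0622) or TGFβ replicate 1 (0.0778). The call of Trim5 for Pam3 with TGFβ was lost without TGFβ replicate 1 (0.0925), TGFβ replicate 3 (0.1) or Pam3+TGFβ replicate 1 (0.0842).

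Trim6, which makes free ubiquitin chains that activate the kinase IKKε, was the gene of the cluster with the highest rise with TGFβ in both contrasts. It measured 5.44, 5.05 and 5.70 CPM untreated, 5.93, 5.81 and 4.38 with Pam3, 19.6, 23.5 and 23.6 with TGFβ and 17.5, 17.5 and 16.8 with Pam3+TGFβ. Both groups with TGFβ were above both groups without it. TGFβ raised Trim6 4.12-fold without Pam3 (log2 2.04, SE 0.11, adjusted p 3.45e-14) and 3.20-fold with it (log2 1.68, SE 0.11, adjusted p 2.73e-12). Pam3 lowered it with TGFβ by 0.37 (adjusted p 0.005), which makes it the interferon-linked gene that fell, and the interaction was not called (log2 -0.37, adjusted p 0.125).

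The interferon-linked genes outside the cluster all rose with Pam3 in the presence of TGFβ, and with TGFβ in the presence of Pam3. In these contrasts, 20.4% and 21.5% of all tested genes were called higher. The list was chosen with earlier results of these data known. Trim21 at chr7:102207128-102214704, the cytosolic receptor for antibody on incoming pathogens, gave 19.8, 17.4 and 17.2 CPM untreated, 17.8, 20.0 and 19.7 with TGFβ, 27.3, 26.3 and 25.1 with Pam3 and 62.3, 56.8 and 54.4 with both. The untreated and TGFβ libraries overlapped, the Pam3 libraries lay above them, and the Pam3+TGFβ libraries were highest. Pam3 raised Trim21 1.45-fold without TGFβ (log2 0.54, SE 0.079, adjusted p 1.6e-05) and 3.01-fold with it (log2 1.59, SE 0.079, adjusted p 9.14e-15), an interaction of 1.05 (SE 0.11, adjusted p 8.68e-08).

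Trim25 (chr11:88890202-88911122) was already abundant, at 167, 156 and 167 CPM untreated, 199, 199.9 and 199.97 with TGFβ, 238, 224 and 229 with Pam3 and 355, 346 and 359.8 with both. The groups followed that order without overlap. The 4 differences between them were all called, at log2 0.50 and 0.82 for Pam3 without and with TGFβ and 0.29 and 0.62 for TGFβ without and with Pam3, and the interaction was 0.33 (SE 0.057, adjusted p 0.000156).

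Trim56 (chr5:137134498-137145125), an E3 ligase known in cytosolic DNA and RNA sensing, rose from 15.4 ± 1.08 CPM untreated to 24.1 ± 0.668 with Pam3 and from 19.7 ± 1.22 with TGFβ to 45.4 ± 6.62 with both. Its interaction was 0.56 (SE 0.13, adjusted p 0.00338). For Trim14, which has no RING domain and acts beside the adaptor MAVS, the means were 104 CPM untreated, 92.1 with TGFβ, 115 with Pam3 and 141 with both, with an interaction of 0.46 (SE 0.066, adjusted p 1.04e-05). The rise of Trim14 with Pam3 alone (log2 0.14, adjusted p 0.0329) lost its call in 7 of 20 alternatives, including those without untreated replicate 3 (0.102), Pam3 replicate 1 (0.0545), Pam3 replicate 2 (0.0671) or Pam3 replicate 3 (0.141). Trim26, an E3 ligase that acts on IRF3, stood between 51.6 and 59.4 CPM in the untreated, TGFβ and Pam3 libraries and at 74.1, 73.8 and 75.0 in the Pam3+TGFβ libraries, with an interaction of 0.32 (SE 0.082, adjusted p 0.00777).

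A higher interaction did not always mean a higher level with both agents. Of the 13 TRIM genes with a higher Pam3 response in the presence of TGFβ, 10 were also higher with Pam3+TGFβ than with Pam3 alone. In 2, Trim30c and Trim8, the level with both agents was lower than with Pam3 alone, and in 1, Trim13, this difference was not called. Over all tested genes, 21.5% were higher and 23.8% lower in that comparison. The 13 were chosen on the interaction, which contains it, so that these counts partly follow from the choice. Among the 13, 6 (Trim8, Trim13, Trim14, Trim30a, Trim30c and Trim30d) had fallen with TGFβ alone, so that their Pam3 response with TGFβ started from a lower level. Of all tested genes, 28.1% were lower with TGFβ alone. The interaction is also the TGFβ effect with Pam3 minus that without it, so that a fall with TGFβ alone adds to it. In Trim13 these effects were -0.20 and -0.93. The count of 6 thus partly follows from the choice as well.

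Trim13 (chr14:61835676-61843398) is a ligase of the endoplasmic reticulum. Its levels were 10.9, 12 and 10.6 CPM untreated, 11.4, 10.8 and 9.98 with Pam3, 6.03, 5.43 and 6.05 with TGFβ and 9.31, 9.18 and 9.49 with both. The untreated and Pam3 libraries overlapped, the TGFβ libraries were lowest, and the Pam3+TGFβ libraries lay between. TGFβ lowered it by 0.93 (SE 0.10, adjusted p 3.64e-08), Pam3 with TGFβ raised it by 0.68 (SE 0.11, adjusted p 9.91e-06), and the interaction was 0.73 (SE 0.15, adjusted p 0.000685). Exons of Dleu2 overlap Trim13 on the other strand over 55 bases.

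Trim8, a ligase that acts on the kinase TAK1, averaged 81.4 CPM untreated, 58.3 with TGFβ, 92.1 with Pam3 and 78.1 with both. Its interaction of 0.24 (adjusted p 0.0334) lost its call in 9 of 19 alternatives, with adjusted p from 0.0603 to 0.152. These were upper-quartile scaling and the fits without untreated replicate 1, any 1 TGFβ replicate, Pam3 replicate 1 or 2, or Pam3+TGFβ replicate 2 or 3. Trim47, whose exons overlap those of Trim65 over 225 bases on the same strand, was 14.1 CPM untreated, 12.4 with TGFβ, 14.3 with Pam3 and 9.37 with both. Its interaction of -0.43 (adjusted p 0.032) was lost in 6 of 19 alternatives, with adjusted p from 0.0551 to 0.1, namely without a filter on low counts and without untreated replicate 1 or 3, TGFβ replicate 3, Pam3 replicate 3 or Pam3+TGFβ replicate 3.

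Outside the interferon-linked list, Trim29, Trim43c, Trim44 and Trim8 rose with Pam3 alone. Trim29 rose by 0.29 without TGFβ and 0.27 with it, with no called interaction (log2 -0.017, adjusted p 0.919). For Trim8 this rise (log2 0.18, adjusted p 0.0231) was lost without untreated replicate 3 (0.107), Pam3 replicate 2 (0.0725) or Pam3 replicate 3 (0.0841). Trim43c, a gene of early embryos with close copies, measured 2.13, 1.32 and 1.85 CPM untreated and 3.43, 2.97 and 2.41 with Pam3, and 14.4% of its 100-base stretches occur in another TRIM gene. Its rise without TGFβ (log2 0.74, adjusted p 0.0372) was lost without untreated replicate 2 (0.157), untreated replicate 3 (0.0524), Pam3 replicate 1 (0.174) or Pam3 replicate 2 (0.0974). With TGFβ present, at 1.99, 1.31 and 1.44 CPM with TGFβ and 2.91, 3.83 and 2.53 with Pam3+TGFβ, it rose by 0.97 (SE 0.25, adjusted p 0.00276), a call kept in all 20 alternatives. Exons of 9330159M07Rik overlap Trim43c on the other strand over 869 bases, and whether the counting used strand is not given in the sources used here. Trim37, a ligase of centrosomes and peroxisomes, fell by 0.20 without TGFβ (adjusted p 0.0319) and 0.21 with it (adjusted p 0.0133). The first of these was not called without untreated replicate 1 (0.136), untreated replicate 3 (0.0959), Pam3 replicate 2 (0.0851) or Pam3 replicate 3 (0.141), and the second without TGFβ replicate 2 (0.0566).

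With TGFβ present, Pam3 lowered Trim47 by 0.41, Trim65 by 0.31, Trim39 by 0.28, Trim11 by 0.22, Trim16 by 0.19 and Trim28 by 0.12, besides Trim6 and Trim37. Without TGFβ the change of Trim39 was -0.29 (adjusted p 0.051, not called), and its interaction was 0.0047 (adjusted p 0.991). Trim65, a ligase for the RNA sensor MDA5, measured 36.1, 39.5 and 34.5 CPM with TGFβ and 27.5, 31.5 and 29.7 with Pam3+TGFβ, without overlap (adjusted p 0.00156). These falls were small, at most 1.33-fold, and those of Trim39, Trim11, Trim16 and Trim28 lost their call in 4, 2, 3 and 8 of 20 alternatives. For Trim39 these left out TGFβ replicate 1 (0.0545) or 3 (0.0738) or Pam3+TGFβ replicate 1 (0.0859) or 3 (0.0866), and for Trim11 TGFβ replicate 3 (0.104) or Pam3+TGFβ replicate 3 (0.0594). Trim16, which marks damaged lysosomes for autophagy, lost its call without TGFβ replicate 2 (0.0596) or Pam3+TGFβ replicate 2 (0.119) or without the filter on low counts, and Trim28 without TGFβ replicate 1 or 2, any 1 Pam3 replicate or Pam3+TGFβ replicate 1, among others, with adjusted p from 0.0518 to 0.114. Besides Trim43c, Trim13, Trim8 and Trim29, Trim35 (log2 0.23) and Trim3 (log2 0.30) rose.

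The effect of TGFβ itself was measured without and with Pam3, in contrasts that share no library. Without Pam3, 16 TRIM genes were higher and 13 lower with TGFβ, against 22.9% and 28.1% of all tested genes. With Pam3, 18 were higher and 11 lower, against 21.5% and 23.8%. In both contrasts 12 genes (25.5%) were higher and 8 (17%) lower, against 14.4% and 18.8% of all tested genes. Over the 42 genes that reached 10 counts in all libraries, 11 (26.2%) were higher and 6 (14.3%) lower in both. The shares of TRIM genes called higher, 34% and 38.3%, lay above those of all genes, and the shares called lower, 27.7% and 23.4%, were close to them. Medians were 0.075 and 0.13, against -0.0084 and -0.0017 over all tested genes. By single contrast, of these 42 genes 15 were higher and 11 lower without Pam3, and 17 higher and 9 lower with it.

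Of the chromatin cofactors of the TIF1 group, Trim28 rose with TGFβ, and Trim24 and Trim33 were not called. Trim28 (chr7:12733041-12764976) measured 134, 143 and 127 CPM untreated, 213, 213 and 204 with TGFβ, 140.4, 139 and 142 with Pam3 and 183, 198 and 197 with both. Both groups with TGFβ lay above both groups without it. The rise was 1.56-fold without Pam3 (log2 0.64, SE 0.048, adjusted p 2.03e-11) and 1.37-fold with it (log2 0.46, SE 0.048, adjusted p 1.25e-08). Exons of Chmp2a overlap Trim28 on the other strand over 2923 bases, and whether the counting used strand is not given in the sources used here. Trim33, also called TIF1γ and known to bind SMAD2 and SMAD3 or to act on SMAD4, was called in none of the 5 contrasts, at 40.4 ± 4.71, 43.7 ± 3.36, 44.5 ± 2.81 and 47.1 ± 3.03 CPM in the untreated, TGFβ, Pam3 and Pam3+TGFβ groups. In each of the 4 contrasts its libraries overlapped, and its TGFβ effect was 0.12 (SE 0.08) without Pam3 and 0.081 (SE 0.079) with it. Trim24 (TIF1α) was not called either, with TGFβ effects of -0.12 and -0.15.

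Trim66, the TIF1 relative known from testis, met the count threshold only through libraries with TGFβ, so that it had to differ. Its counts were 2, 1 and 1 in the untreated libraries, 25, 40 and 46 with TGFβ, 4, 6 and 0 with Pam3 and 40, 24 and 43 with Pam3+TGFβ. The groups with TGFβ were above those without it in every library. Over the untreated libraries 4 counts stood against 111 with TGFβ, a ratio of 27.7 after scaling (exact 95% counting interval 10.5 to 103). Since the threshold was met through the TGFβ libraries, these counts are a description and no test is given.

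Trim29 (chr9:43222085-43247413) rose with TGFβ to a like extent in both settings. It measured 136, 161 and 147 CPM untreated, 242, 239 and 242 with TGFβ, 178, 177 and 188 with Pam3 and 285, 295 and 292 with both, in groups that did not overlap. TGFβ raised it by 0.70 without Pam3 (SE 0.049, adjusted p 6.47e-12) and by 0.68 with Pam3 (SE 0.049, adjusted p 1.21e-11). Of the other genes, Trim65 (log2 0.46 and 0.27) and Trim39 (log2 0.43 and 0.44) also rose in both contrasts, and Trim27, Trim44, Trim11 and Trim59 rose without Pam3 by 0.30 or less. Of these, Trim11 lost its call without untreated replicate 3 (0.082) or TGFβ replicate 3 (0.0806), and Trim59 in 7 of 20 alternatives, among them those without any 1 untreated replicate, TGFβ replicate 2 or TGFβ replicate 3, with adjusted p from 0.0507 to 0.185.

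Among genes with known roles in the cytoskeleton, muscle or neurons, Trim36 and Trim46 fell with TGFβ in both contrasts and Trim3 (log2 -0.27, adjusted p 0.0035) fell without Pam3. Trim2 and Trim72 were lower too, but met the count threshold only through libraries without TGFβ, so that they had to differ. Trim36, which binds microtubules, measured 19.2, 15.9 and 16 CPM untreated, 7.86, 9.33 and 8.93 with TGFβ, 16.2, 16.3 and 14.2 with Pam3 and 8.0, 8.65 and 7.59 with Pam3+TGFβ. The groups with TGFβ were below those without it, with no overlap. It fell 1.95-fold without Pam3 (log2 -0.97, SE 0.10, adjusted p 1.71e-08) and 1.93-fold with it (log2 -0.95, SE 0.10, adjusted p 3.32e-08).

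Trim72 (MG53), which mends membranes in muscle, had 10, 17 and 15 counts untreated, 7, 8 and 12 with Pam3, and 0 in each of the 6 libraries with TGFβ. Against a floor of 3 counts per library (9 over the group), it was at least 4.67-fold lower with TGFβ without Pam3 and at least 3.23-fold lower with Pam3. Trim2, a neuronal ligase that acts on neurofilament, had 29, 21 and 28 counts untreated, 2, 8 and 0 with TGFβ, 63, 22 and 25 with Pam3 and 0, 3 and 0 with both. Every library with TGFβ was below every library without it. The fitted change was -2.95 without Pam3, a description as well, which ran from -4.49 without TGFβ replicate 2 to -2.37 without TGFβ replicate 3. With Pam3, 110 counts stood against 3, a ratio of 39.5 (exact 95% counting interval 13.2 to 195). These intervals and floors cover counting error only.

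Trim46, a protein of the axon's first segment, averaged 1.76 ± 0.15 CPM untreated and 0.990 ± 0.344 with TGFβ, and 1.60 ± 0.706 with Pam3 and 0.875 ± 0.0563 with both. Krtcap2 exons overlap it on the other strand over 459 bases. The adjusted p of Trim46 was 0.0476 without Pam3 and 0.0477 with it. The calls were lost in 12 and 11 of 20 alternatives. Without Pam3, adjusted p reached 0.223 without TGFβ replicate 3, and leaving out any 1 untreated replicate, TGFβ replicate 1 or any 1 Pam3+TGFβ replicate gave 0.0558 to 0.112. With Pam3, it reached 0.371 without Pam3 replicate 3, was 0.0617 with the replicate number as a block, and was 0.0505 to 0.111 without untreated replicate 1 or 2, TGFβ replicate 1 or any 1 Pam3+TGFβ replicate. The neutrophil gene S100a8 and the markers Itgam and Fabp4 fell in the same TGFβ groups as these genes, and their part in the result was not tested.

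**Figure D5:**
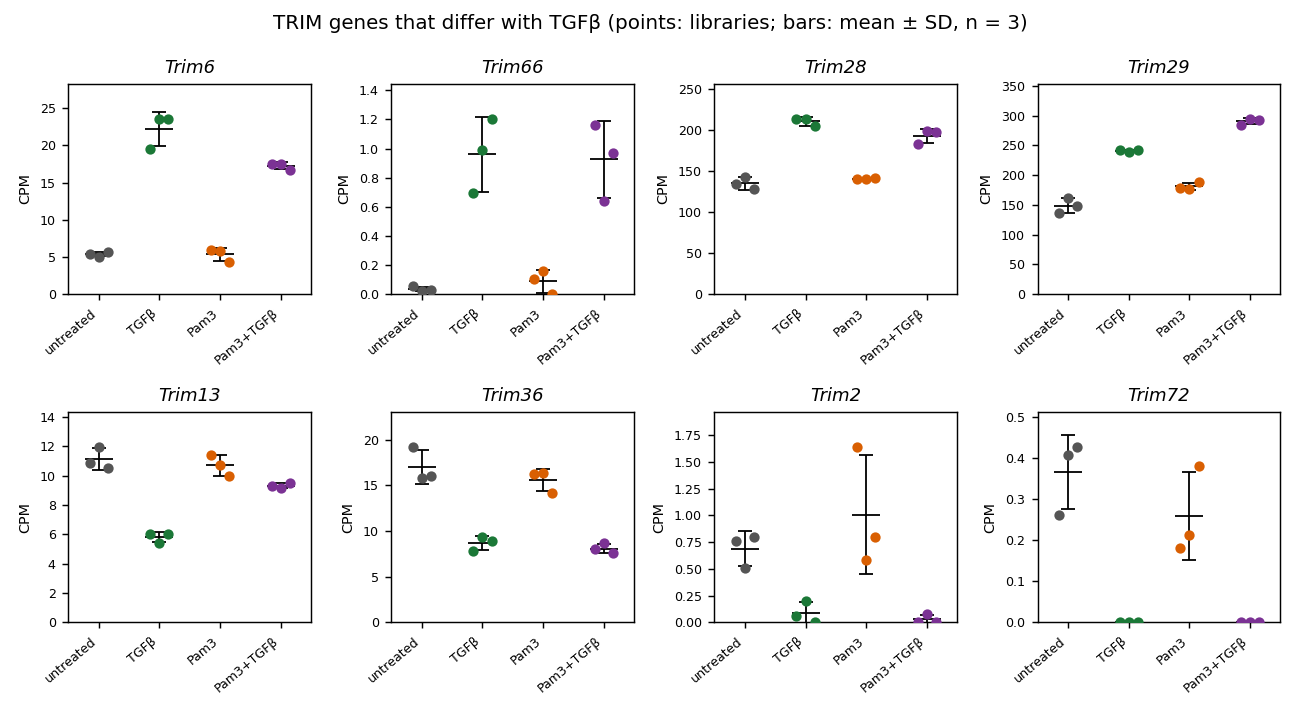
CPM of 8 TRIM genes that differ with TGFβ in each library (points, libraries; bars, mean ± SD of 3 libraries; each vertical axis starts at 0). Trim6, Trim66, Trim28 and Trim29 are higher in the groups with TGFβ, Trim36, Trim2 and Trim72 are lower in them, and Trim13 is lowest with TGFβ alone.

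Outside these groups, Trim35, Trim37 and Trim8 fell with TGFβ in both contrasts. Trim35 measured 85.4, 83.6 and 80.1 CPM untreated, 57.6, 59.5 and 57.0 with TGFβ, 88.4, 86.4 and 85.9 with Pam3 and 70.5, 62.5 and 70.7 with both. This was a fall with TGFβ of 0.52 without Pam3 (SE 0.057, adjusted p 2.56e-08) and of 0.36 with it (SE 0.056, adjusted p 9.63e-06). Trim37 fell by 0.40 and 0.41, and Trim8 by 0.48 and 0.24. Trim47 fell with TGFβ in the presence of Pam3 by 0.61 (SE 0.097, adjusted p 9.76e-06), and without Pam3 its difference of -0.18 was not called (adjusted p 0.111). Trim41 fell by 0.14 with Pam3 at an adjusted p of 0.0488, which became 0.0549 with the replicate number as a block. That call was lost in 19 of 20 alternatives, among them every one that left out 1 library (0.0509 to 0.212). Trim16 fell by 0.18 with Pam3 (adjusted p 0.0307), a call lost without Pam3 replicate 2 (0.198), Pam3+TGFβ replicate 2 (0.175) or Pam3+TGFβ replicate 3 (0.053) and under 2 filters on low counts (up to 0.0915).

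Of the 47 TRIM genes, 10 (21.3%) were called in none of the 5 contrasts, against 31.7% of all tested genes. Trim23, Trim24, Trim32, Trim33, Trim62 and Trim68 were at 5 CPM or more in every group on average, with log2 fold changes between -0.18 and 0.14. Trim15, Trim17 and Trim45 were at 0.290 to 2.64 CPM in the group means. Trim7, known for binding glycogenin, averaged 8.64, 10.8, 10.8 and 12.3 CPM in the untreated, TGFβ, Pam3 and Pam3+TGFβ groups, and its TGFβ effect without Pam3 was just outside the threshold (log2 0.33, adjusted p 0.054). At the other end, 11 TRIM genes (23.4%) were called in all 4 of the Pam3 and TGFβ contrasts, as were 8.6% of all tested genes.

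Genes of the pathways in which TRIM proteins are known to act were taken from lists. Of 15 genes of RNA and DNA sensing, 8 had a higher interaction and none a lower one, against 10.3% and 5.67% of all tested genes. The largest were Ddx58 (RIG-I, the sensor that Trim25 modifies) at 1.63 (SE 0.091, adjusted p 4.28e-12), Ifih1 (MDA5, the target of Trim65) at 1.51 (SE 0.11, adjusted p 4.34e-10) and the bacterial sensor Nod2 at 1.41 (SE 0.12, adjusted p 2.68e-09). Ddx58 averaged 44.1 CPM untreated, 38.6 with TGFβ, 127 with Pam3 and 344 with both, the same order of groups as Trim30a and Trim30d. Among 10 genes of interferon signalling, 6 had a higher interaction and 1, Irf8 (-0.29, adjusted p 0.00447), a lower one, beside the same shares of all tested genes. Irf7, a factor that drives interferon genes, had an interaction of 2.45 (SE 0.28, adjusted p 0.000256), Irf1 of 1.28 and Stat2, a transcription factor of the interferon response, of 1.15.

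Of the 6 SMAD genes and SMAD inhibitors set beside Trim33, 3 were higher and 2 lower with TGFβ without Pam3, and 3 were higher and 3 lower with it. The shares of all tested genes were 22.9% and 28.1% in the first contrast and 21.5% and 23.8% in the second, so that the count of lower genes without Pam3 is near the share of all genes. The inhibitor Smad7 rose by 2.33 (SE 0.12, adjusted p 1.68e-14) without Pam3, and the corepressors Skil and Ski by 1.47 and 1.11, whereas Trim33 had no call. At the other end, the lowest log2 fold changes with TGFβ on this list were -1.71 without Pam3 and -3.81 with it. Ski was the gene of this list with a called interaction (-0.26, adjusted p 0.00642). Of 8 partners of Trim28 in heterochromatin, 3 rose and 1 fell with TGFβ without Pam3, where 22.9% and 28.1% of all tested genes did; with so few genes the count does not stand out. Cbx3 (log2 0.46), Cbx5 (log2 0.45) and Cbx1 (log2 0.35), which encode HP1 proteins, were those that rose. Setdb1, the histone methyltransferase that works with Trim28, was not called (log2 0.10, adjusted p 0.116).

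In the table, 11 genes encode TRIM proteins or close relatives under other symbols, and 4 of them were tested. Pml (TRIM19), which builds the nuclear bodies named after it, had levels of 36.0, 38.0 and 39.5 CPM untreated, 29.7, 27.8 and 30.6 with TGFβ, 64.0, 59.8 and 61.3 with Pam3 and 107, 103 and 112 with Pam3+TGFβ. As in Trim30a, the TGFβ group was lowest and the Pam3+TGFβ group highest, without overlap. The interaction was 1.16 (SE 0.085, adjusted p 1.61e-10). Of 7 further genes of PML bodies, 4 had a higher interaction and none a lower one, against 10.3% and 5.67% of all tested genes, with Sp100 at 1.72 (SE 0.099, adjusted p 2.74e-12), Daxx at 1.10 and Sp110 at 1.00. Sp100 stood at 38.5 CPM untreated, 8.92 with TGFβ, 95.5 with Pam3 and 73.0 with both, with a fall of 2.11 with TGFβ alone. Fsd1l, a relative with a SPRY domain, fell with TGFβ by 2.07 (SE 0.14, adjusted p 5.05e-12) and had an interaction of 0.58 (adjusted p 0.0474). Mid1 (TRIM18), a microtubule protein, also fell with TGFβ, by 0.72 without Pam3 and 0.37 with it. Fsd2, a muscle relative, went the other way: Pam3 lowered it by 0.48 without TGFβ (adjusted p 0.0294) and 1.08 with it (adjusted p 2.41e-06), TGFβ without Pam3 raised it by 0.43 (adjusted p 0.0166), and its interaction of -0.60 was not called (adjusted p 0.0634).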

How the data were processed

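RNA sequencing measured 12 libraries, 3 in each of 4 groups; the labels' titles gave each group. The deposited table holds whole-number read counts per gene. The authors used bcl2fastq 2.20.0, FastQC 0.11.7, Bowtie2 2.4.1, GRCm39, featureCounts of Subread 2.0.0, and DESeq2 1.36.0 in R 4.2.1, per the submitters' processing notes, and a stranded mRNA kit, per the labels' protocols. Annotation, strand setting and multimapping are not given in the sources used here. Bowtie2 does not split reads over introns. A second table deposited by the authors holds normalised values, a signal equal to the count divided by 1 constant per library, which was used in 1 alternative only.

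The counts were tested with edgeR 4.0.16 in R 4.3.3 (TMM scaling, filterByExpr with a minimum count of 10, robust quasi-likelihood fit of 4 group means), with Benjamini-Hochberg adjustment over 14749 genes and calls under 0.05. The SE is the log2 fold change divided by the square root of F. CPM used TMM-scaled totals. Exon lengths, overlaps and shared 100-base stretches came from GENCODE M39 on GRCm39. Test and counts were checked on simulated data. Replicates differed by more than counting error in every pair, at a chi-square of at least 9.99 per degree of freedom. Alternatives were RLE and upper-quartile scaling, DESeq2 1.42.0, limma 3.58.1 on the deposited normalised values, other filters, the replicate number as a block, the compared groups alone, and each library left out.

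Replicate numbers come from the titles. Deviations of same-numbered libraries from their group means correlated at 0.468, 0.216 and 0.197 between Pam3 and Pam3+TGFβ over 9133 genes, which met the rule for pairing (every pair over 0.1); in the other contrasts of 2 groups at least 1 pair was negative. Untreated and Pam3+TGFβ, which are not contrasted directly but both enter the interaction, also met it (0.323, 0.221 and 0.309). The members, the lists and the rule for genes named were chosen with earlier results of these data known. The rule named up to 5 called members with the largest change per contrast and direction, the 5 highest per kilobase, Trim21, Trim25, Trim28, Trim30a and Trim33 for their roles, and genes next to the count threshold. Other members were named after their values were seen.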

Additional observations from a re-analysis of the deposited data

Results flagged for a closer look

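The Pam3 response differed between cultures with and without TGFβ, by the interaction test of edgeR with Benjamini-Hochberg adjustment over all tested genes, in 14 TRIM genes. The difference, as log2 fold change with TGFβ minus that without it, was 3.01 for Trim30c, 1.53 for Trim30d, 1.32 for Trim30a, 1.05 for Trim21 and 0.91 for Trim34a. It was 0.73 for Trim13, 0.56 for Trim56, 0.46 for Trim14, 0.40 for Trim12a, 0.40 for Trim12c, 0.33 for Trim25, 0.32 for Trim26 and 0.24 for Trim8. For Trim47 it was -0.43. All 13 genes with a positive difference were called higher with Pam3 in the presence of TGFβ, and 3 of them, Trim12c, Trim13 and Trim26, were not called with Pam3 alone. Of all tested genes, 20.4% were called higher with Pam3 in the presence of TGFβ and 9.62% with Pam3 alone. The 13 were chosen on the difference between these responses, so that the counts partly follow from the choice. Groups of 3 libraries are too small for a test of single outlying libraries.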

How the results depend on the processing

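Over 20 alternatives (19 for the interaction), the number of TRIM genes called stayed within 1.5 times the count reported in each of the 5 contrasts, and no direction reversed. The counts over the interferon-linked genes did so too, in alternatives chosen after seeing the data. With 1 library left out, TRIM genes called ran from 11 to 15 (Pam3 without TGFβ), 25 to 28 (Pam3 with TGFβ), 26 to 30 (TGFβ without Pam3), 26 to 29 (TGFβ with Pam3) and 11 to 16 (interaction). With the replicate number as a block they were 15, 28, 28, 27 and 14, against 15, 28, 29, 29 and 14 without it. Besides Trim41 and Trim46 with Pam3, the block ended the calls of Trim46 and Trim59 for TGFβ without Pam3, where the numbers did not pair the libraries. For genes named by the rule, there were 1503 pairs of a called value and an alternative. Of these, 1435 kept their side of the threshold and 68 lost it. The cause was not tested. This tally leaves out Trim8, Trim12a, Trim12c, Trim14, Trim16, Trim41 and Trim59, which the rule did not name and which lost calls too. Trim41 did so in 19 alternatives. Fitted changes of Trim2, Trim30b, Trim66 and Trim72 rest on under 10 counts in some libraries and moved most: Trim72 with TGFβ went from -6.80 to -3.61 under limma. Trim2 with TGFβ and Pam3 went from -5.11 to -8.25 without Pam3+TGFβ replicate 2. At these counts a difference between groups near 0 could not be sized.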
